A study of Mus musculus with 35 samples.

Results

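The genes described here encode the extracellular matrix made by fibroblasts and the contractile apparatus of smooth muscle. They are 40 named mouse genes, found on the arrays as the 48 probes whose transcript accession belongs to one of them, of 20886 genes with a named probe. Of the 40 genes, 33 passed the filter on dim probes and were tested, among 10635 genes that passed. A probe passed where its scanner flag put it well above background on 3 or more arrays of any 1 group. A gene that passed only through a group in which it is high was bound to differ from that group, so the number of tested members is no evidence of a difference.

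All samples came from healthy C57BL/6 mice, wild type and female, between 8 and 16 weeks old. Resident memory CD8+ T cells (Trm) of liver (n = 5 arrays), lung (n = 6) and small intestine (n = 6) were purified from dissociated organs over a 40% and 80% Percoll gradient, by magnetic beads against CD8b and then against CD103. Effector memory CD8+ T cells (Tem, n = 6) were CD8b-selected blood cells of the same animals, depleted of CD62L-positive cells. Unsorted whole liver, whole lung and whole intestine, and unsorted mononuclear cells of blood (PBMC), were measured to control for other cells carried through the purification (n = 3 each). No label ties an array to an animal, and p-values therefore measure the spread between samples, which may be technical.

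Collagens are secreted as chains that assemble into fibrils, into the sheet of the basement membrane, or into beaded filaments around cells. Small proteoglycans, fibulins, fibronectin and elastin bind and organise these fibres, and matricellular proteins such as SPARC tune how cells hold on to them. In liver, lung and intestine the main producers are fibroblasts, pericytes, stellate cells and smooth muscle cells, and endothelial cells add basement membrane. Smooth muscle and myofibroblasts contract through actins and myosin specific to them. T cells cross and adhere to this matrix, and CD103, on which the Trm were selected, is an integrin chain that binds E-cadherin of epithelial cells.

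The sequences upstream of 4 members are shown because these genes stand at the centre of the comparisons. Sparc was higher than Tem in all 3 Trm populations, and Col1a2 and Col3a1 encode the main fibrillar collagens. Of the members with an entry, Myl9 alone held an exact CArG box in the 250 bases searched. The CArG box is the site of serum response factor in smooth muscle genes. The sequences are from RefSeq (GRCm38.p6), whose promoter table held an entry for 26 of the 40 members. Each window ends where the annotated gene begins: Sparc at chr11:55420081-55420330 on the minus strand, Col1a2 at chr6:4505368-4505617, Col3a1 at chr1:45311288-45311537 and Myl9 at chr2:156775214-156775407, these 3 on the plus strand. Capitals mark motifs found on either strand: the CArG box, the TATA motif TATAAA, the CCAAT motif, and the GC box motif GGGCGG with its reverse complement.
Sparc: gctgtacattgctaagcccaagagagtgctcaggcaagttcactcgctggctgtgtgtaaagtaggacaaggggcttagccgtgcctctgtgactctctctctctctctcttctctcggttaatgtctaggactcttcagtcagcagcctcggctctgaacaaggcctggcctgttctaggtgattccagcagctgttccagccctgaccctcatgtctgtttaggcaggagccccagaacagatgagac
Col1a2: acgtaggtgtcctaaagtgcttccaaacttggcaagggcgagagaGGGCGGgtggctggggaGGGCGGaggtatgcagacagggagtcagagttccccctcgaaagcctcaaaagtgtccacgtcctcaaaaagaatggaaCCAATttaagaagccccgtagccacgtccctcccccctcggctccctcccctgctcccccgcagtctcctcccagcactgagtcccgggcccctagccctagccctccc
Col3a1: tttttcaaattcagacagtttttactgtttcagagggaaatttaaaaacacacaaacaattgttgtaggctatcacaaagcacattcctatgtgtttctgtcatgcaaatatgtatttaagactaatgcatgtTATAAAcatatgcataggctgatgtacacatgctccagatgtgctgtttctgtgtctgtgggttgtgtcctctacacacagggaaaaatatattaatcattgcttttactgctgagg
Myl9: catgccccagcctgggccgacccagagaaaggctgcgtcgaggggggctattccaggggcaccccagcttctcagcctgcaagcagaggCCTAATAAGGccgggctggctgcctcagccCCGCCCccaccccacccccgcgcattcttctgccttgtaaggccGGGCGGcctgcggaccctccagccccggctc
No motif searched for was found in the Sparc window, which says only that these letters are not in it. Over the 250 bases before each start site, the CArG box was in 1.47% of all 32851 promoters and in 1 of the 26 members. For Acta2 these bases lay mostly, and for Mylk wholly, inside the annotated gene. The search therefore cannot tell whether these 2 genes, or members with inexact boxes, lack one upstream. TATAAA was in 12.4% of all promoters and in 2 members (Col3a1 and Postn), CCAAT in 33.8% and in 7 members, and GGGCGG in 32.7% and in 15 members. A match is a description of the letters and not evidence of a bound factor.

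Levels are log2 signals relative to an array's own 75th percentile over the 1341 probes detected (well above background) on all 35 arrays. A level of 0 is that percentile, and levels of different probes cannot be set against each other. Between 12.2% and 35.5% of probes were well above background on the sorted arrays, and 27.4% to 40.7% on whole-organ arrays other than whole liver 2, which stood apart at 64.6%. Whole PBMC 1 had 7.80%, the lowest of all arrays. The sorted and the whole samples lay on different slides that were scanned in different runs, so slide and sample type cannot be told apart. All 10 tested T cell markers were higher in each Trm population than in its whole organ, with median log2 differences of 6.49 in liver, 5.61 in lung and 4.97 in intestine. In these bulk samples, fewer cells of a type and less RNA per cell cannot be told apart.

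The 40 genes were detected mainly in the whole organs. Of the 40 genes, 4 were detected on all arrays of intestine Trm, 3 in lung Trm and 2 in liver Trm. Whole lung had 32 such genes, whole intestine 26 and whole liver 12. In Tem 1 gene was detected on all arrays, and in whole PBMC 2. The gene of Tem was Col14a1, which was also among those of lung Trm and whole PBMC. Its other probe was well above background on no array of these groups. Intestine Trm differed from the other sorted groups in how many members were detected at least once: 31 genes on any of its arrays, against 15 in lung Trm, 14 in liver Trm and 10 in Tem. Its arrays were unequal, with 12, 31, 21, 20, 15 and 9 members well above background on intestine Trm 1 to 6.

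**Figure D1:**
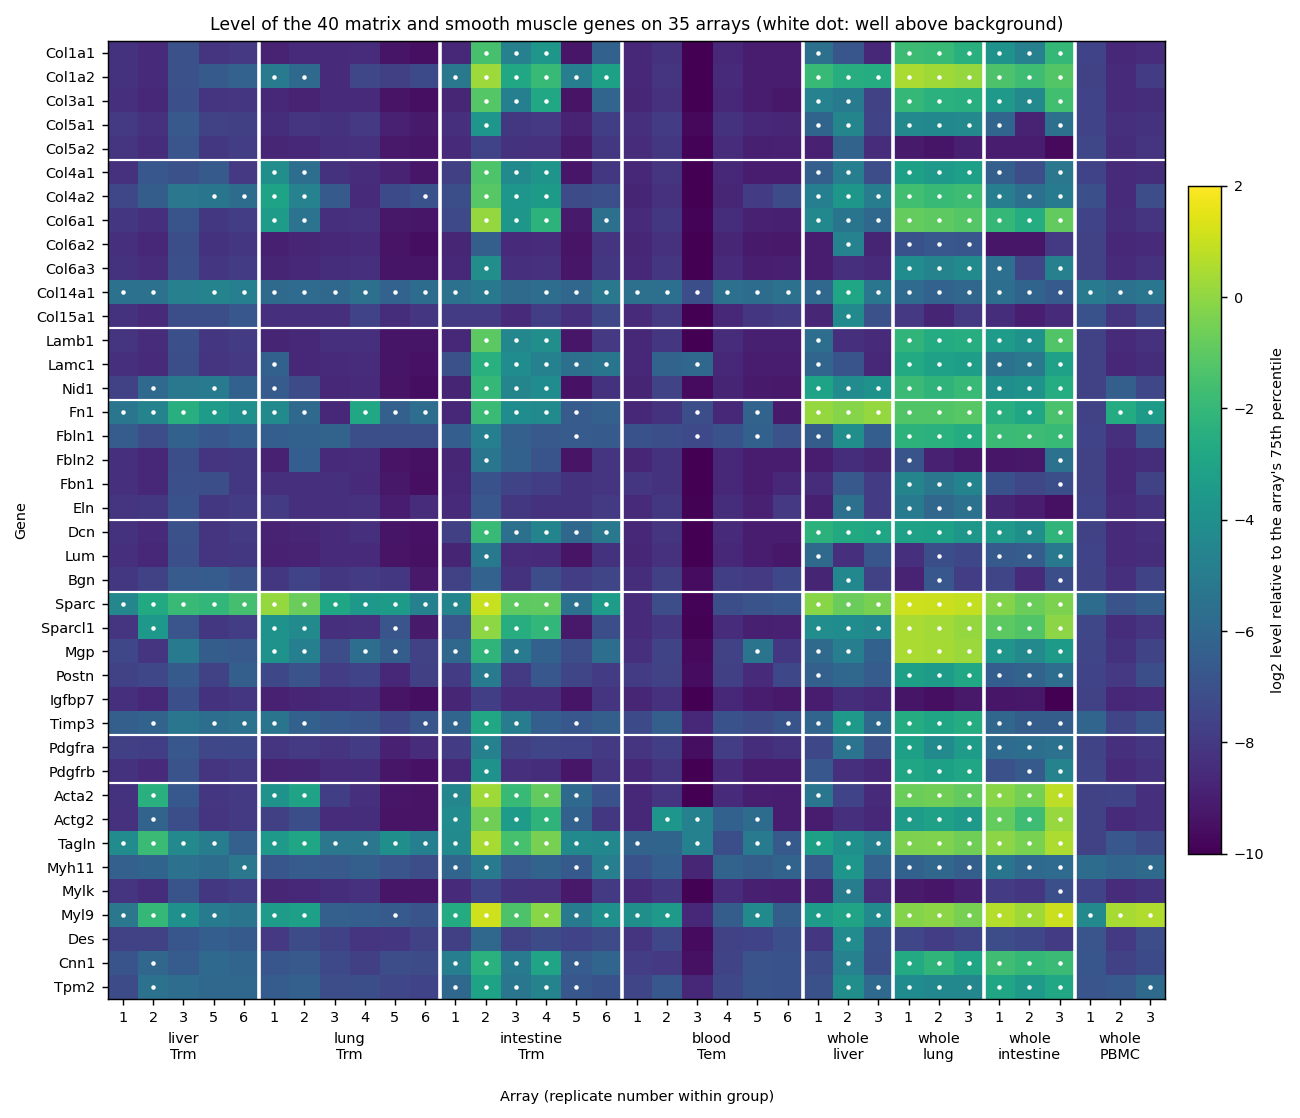
Heatmap of the log2 level of each of the 40 genes (rows, in order of role, separated by white lines) on each of the 35 arrays (columns, by group), relative to the 75th percentile of the array; a white dot marks a level well above background. Dots fill most of the whole lung and whole intestine columns, are sparse in Tem and PBMC, and in the sorted groups are densest on intestine Trm 2.

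The other 7 members failed the filter and were not tested. Col5a2, a partner chain in type V collagen, and Igfbp7, a secreted IGF-binding protein, were well above background on no array. Des, which encodes the muscle intermediate filament desmin, was so on whole liver 2 alone, at -4.21, against -8.12 and -7.08 on whole liver 1 and 3. Col15a1, a basement membrane collagen, was detected on whole liver 2 alone as well. Mylk, the kinase that switches on smooth muscle myosin, was detected on 2 arrays, and Fbln2 (a fibulin) and Bgn (the proteoglycan biglycan) on 3 arrays each. Whole liver 2 was the only whole liver array with a detected signal for 9 members: Bgn, Cnn1, Col15a1, Col6a2, Des, Eln, Myh11, Mylk and Pdgfra.

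The level of the members differed by organ and was highest in whole lung for most of them. Of the 33 tested genes, 21 had their highest group mean in whole lung, 8 in whole intestine and 4 in whole liver, and none in a sorted group. The 8 of whole intestine were Fbln1 and Lum of the matrix and 6 of the 7 tested contractile genes. In 13 of the 21, 6 of the 8 and 1 of the 4, all arrays of that group lay above all arrays of the group with the next highest mean. The 1 of whole liver was Fn1. Single arrays of other groups could still reach that range, as intestine Trm 2 did for Acta2 (0.28). The same shares were not counted over all genes, so these counts cannot be read as particular to the members.

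The levels of the 33 genes were summed on a linear scale, as a percent of the 75th percentile of the array. Intestine Trm 1 to 6 had 59.4, 1486, 263, 453, 32.8 and 63.0, against 759, 577 and 1201 on the whole intestine arrays. Lung Trm 1 to 6 had 197, 129, 32.1, 41.2, 28.5 and 21.0, against 1252, 1176 and 1053 on the whole lung arrays. Liver Trm had 31.0, 120, 93.7, 68.0 and 71.2, against 318, 296 and 255 in whole liver. Intestine Trm 2 therefore lay above every whole intestine array, and the other Trm arrays lay below every array of their own organ. Tem had a lowest sum of 14.6, a median of 18.1 and a highest of 34.6, and whole PBMC had 28.6, 165 and 175.

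**Figure D2:**
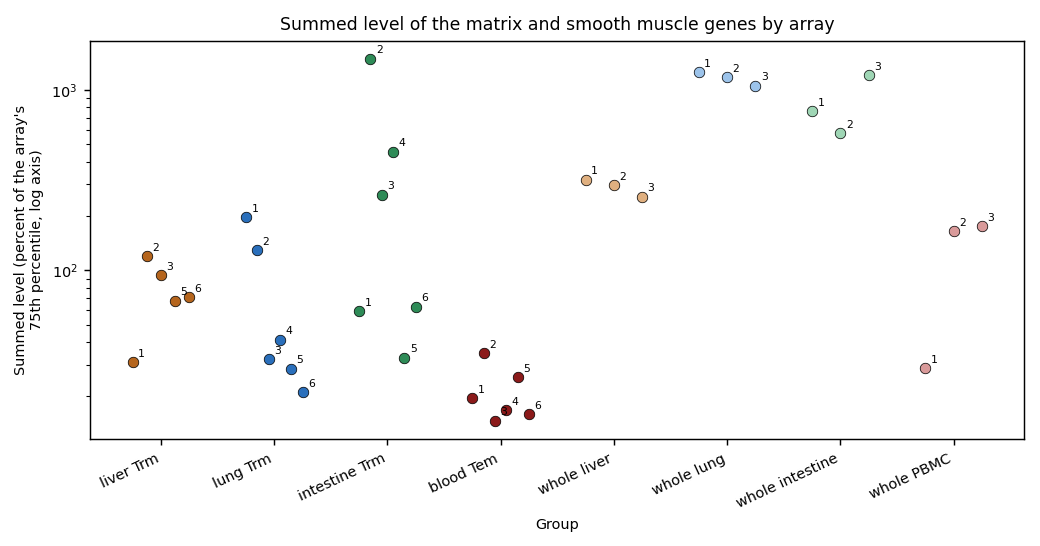
Summed linear level of the 33 tested genes on each array (points, with replicate numbers), as a percent of the 75th percentile of the array on a log axis, by group. Intestine Trm 2, at 1486, sits above all whole organ arrays, while the Tem arrays lie between 14.6 and 34.6.

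Intestine Trm 2 carried the highest level among the intestine Trm arrays for 32 of the 33 genes, the exception being Myh11. For 26 genes it was above every whole intestine array, for 2 (Cnn1 and Fbln1) below every one, and for 5 within their range. Its 10 tested endothelial markers summed to 408 (percent of the 75th percentile) and were all well above background, against 12.3 to 91.5 on the other intestine Trm arrays and 69.1 to 80.3 in whole intestine. Its T cell markers summed to 434, against 561 to 1082 on the other 5 intestine Trm arrays. Its gut epithelial markers summed to 136, also the highest of the 6, with 22.2 to 59.6 on the other intestine Trm arrays and 1429 to 3512 in whole intestine. Their part in the levels of this array was not tested, and the results of intestine Trm are given with and without it.

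Among the fibrillar collagens, Col1a1, the main chain of type I collagen, was not well above background in most sorted samples. Liver Trm arrays had -8.24, -8.56, -7.00, -8.18 and -8.00, against -5.58, -6.77 and -8.64 in whole liver. Lung Trm had a lowest level of -9.52, a median of -8.72 and a highest of -8.47, against -1.78, -1.91 and -2.38 in whole lung. Intestine Trm 1 to 6 had -8.67, -1.51, -4.77, -3.66, -9.27 and -6.28, against -3.90, -4.76 and -1.99 in whole intestine. Lung Trm and whole lung did not overlap, whereas intestine Trm spanned the range from background to above whole intestine. Tem ranged from -10.12 to -8.22 around a median of -8.85, and whole PBMC had -7.58, -8.61 and -8.46, none of them well above background.

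Col3a1, the type III collagen of soft tissues, was likewise not well above background on most sorted arrays. Liver Trm arrays had -8.38, -8.64, -7.06, -8.20 and -8.08, against -4.66, -5.08 and -7.68 in whole liver. The lung Trm arrays had a lowest level of -9.49, a median of -8.73 and a highest of -8.55, against -2.00, -2.33 and -2.42 in whole lung. In intestine Trm 1 to 6 the levels were -8.73, -1.16, -4.81, -2.87, -9.37 and -6.08, against -3.56, -4.35 and -1.61 in whole intestine. Here too intestine Trm 2, 3 and 4 alone among the sorted arrays were well above background. Tem ranged from -10.16 to -8.28 around a median of -8.92, and whole PBMC had -7.57, -8.58 and -8.42.

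Col1a2, the second chain of type I collagen, was found more widely. All 6 intestine Trm arrays were well above background, at -5.20, 0.25, -2.79, -1.94, -4.87 and -3.20, against -1.36, -1.75 and -1.21 in whole intestine. Lung Trm had -5.10 and -5.92 on arrays 1 and 2, well above background, and -8.54 to -7.32 on the others, against 0.45, 0.27 and 0.08 in whole lung. Liver Trm had -8.25, -8.55, -7.04, -6.58 and -6.21, against -1.91, -2.51 and -2.55 in whole liver. Each Trm population other than intestine lay below its organ without overlap, and in intestine array 2 alone reached above it. No Tem or PBMC array was well above background.

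Col4a1 and Col4a2 encode the chains of the basement membrane collagen made by endothelium and stroma. For Col4a1, lung Trm 1 and 2 had -4.07 and -5.65 and the other 4 arrays -9.27 to -8.26, against -3.19, -3.51 and -3.23 in whole lung. The 6 intestine Trm arrays had -7.70, -1.30, -4.28, -3.80, -9.29 and -8.04, against -6.37, -7.18 and -5.24 in whole intestine. Liver Trm had -8.28, -6.76, -7.00, -6.62 and -7.99, against -6.38, -4.86 and -7.19 in whole liver. Intestine Trm 2, 3 and 4 were above all whole intestine arrays, and the liver and intestine groups overlapped. Tem ranged from -10.08 to -8.18 around a median of -8.86, and whole PBMC had -7.61, -8.58 and -8.41.

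Dcn encodes decorin, a proteoglycan that coats collagen fibrils. Liver Trm had -8.25, -8.56, -7.02, -8.17 and -7.96, against -2.30, -2.72 and -2.92 in whole liver. Lung Trm had a lowest level of -9.40, a median of -8.77 and a highest of -8.40, against -3.12, -3.18 and -3.66 in whole lung. Intestine Trm had -7.72, -1.92, -5.56, -4.60, -6.01 and -5.19, against -3.51, -4.03 and -2.16 in whole intestine. Decorin was at background in liver and lung Trm and well above it on 5 of 6 intestine Trm arrays. Tem ranged from -10.05 to -8.21 around a median of -8.85, and whole PBMC had -7.62, -8.57 and -8.33.

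Sparc, the matricellular calcium-binding glycoprotein also called osteonectin, was the member most widely detected in the Trm populations. Liver Trm had -4.43, -2.73, -1.90, -2.03 and -1.53, against -0.14, -0.72 and -0.46 in whole liver. Lung Trm 1 to 6 had 0.12, -0.75, -2.88, -3.59, -3.48 and -4.74, against 1.09, 1.06 and 0.88 in whole lung. Intestine Trm 1 to 6 had -4.55, 0.98, -0.96, -0.92, -5.53 and -3.37, against -0.25, -0.69 and -0.35 in whole intestine. By this probe, the brighter of those for Sparc, all 17 Trm arrays were well above background. Apart from intestine Trm 2 they lay below every array of their own organ. The dimmer probe was well above background on only 2 of 5 liver, 3 of 6 lung and 3 of 6 intestine Trm arrays. Tem had -8.57, -7.16, -9.90, -7.10, -6.93 and -6.75 and whole PBMC -5.75, -6.94 and -6.44, with no array well above background.

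Fn1 encodes fibronectin, an adhesive glycoprotein of matrix that hepatocytes also secrete into plasma. Liver Trm had -5.27, -4.64, -2.48, -3.41 and -3.97, against 0.08, -0.19 and 0.12 in whole liver. Levels in lung Trm had a lowest of -8.60, a median of -5.78 and a highest of -2.86, against -1.26, -1.24 and -1.11 in whole lung. On intestine Trm 1 to 6 it was at -8.66, -1.81, -4.17, -4.26, -6.57 and -6.30, against -2.49, -2.88 and -1.46 in whole intestine. All 5 liver Trm arrays were well above background and below whole liver. Tem had a lowest level of -9.15, a median of -8.46 and a highest of -6.18, with 2 arrays well above background, and whole PBMC had -7.64, -2.60 and -3.45.

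Pdgfrb, the PDGF receptor of pericytes and fibroblasts, was well above background on 1 sorted array only, intestine Trm 2, at -3.88. The other 5 intestine Trm arrays had -9.27 to -8.16, and whole intestine had -7.03, -6.59 and -4.65. Liver Trm had -8.25, -8.54, -6.92, -8.14 and -7.96, against -6.72, -8.32 and -8.61 in whole liver, all of them not well above background. Lung Trm had a lowest level of -9.39, a median of -8.78 and a highest of -8.41, against -2.95, -3.18 and -2.96 in whole lung. Lung was thus the only organ with a clear Pdgfrb signal on every whole-organ array. Tem ranged from -10.04 to -8.16 around a median of -8.82, and whole PBMC had -7.49, -8.52 and -8.31.

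Acta2, the alpha smooth muscle actin of myofibroblasts and vessel walls, was high on single sorted arrays. Liver Trm had -8.23, -2.37, -6.72, -8.12 and -7.95, against -5.27, -7.57 and -8.58 in whole liver. Lung Trm 1 to 6 had -3.88, -3.10, -7.78, -8.39, -9.29 and -9.36, against -0.69, -0.59 and -0.90 in whole lung. Intestine Trm 1 to 6 had -4.44, 0.28, -1.91, -0.87, -5.92 and -6.97, against -0.11, -0.50 and 0.82 in whole intestine. Liver Trm 2 and lung Trm 1 and 2 were well above background while the other liver and lung Trm arrays were not. Tem ranged from -10.03 to -8.20 around a median of -8.81, and whole PBMC had -7.64, -7.55 and -8.35.

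The arrays that carried Acta2 also carried other members. Liver Trm 2 was well above background for Sparcl1 (-3.59), Tagln (-1.84) and Myl9 (-1.99) as well. Lung Trm 1 and 2 had 15 and 13 members well above background, against 3 to 7 on lung Trm 3 to 6, and their endothelial markers summed to 108 and 66.1 against 11.1 to 36.4. Lung epithelial markers summed to 943, 584, 462, 120, 129 and 17.5 on lung Trm 1 to 6, against 763 to 964 in whole lung. The part of these other cell types in the levels was not tested.

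Actg2, the gamma actin of visceral smooth muscle, was highest in the intestine. Intestine Trm 1 to 6 had -4.20, -0.62, -3.43, -2.21, -6.30 and -8.07, against -0.82, -1.72 and 0.17 in whole intestine. Liver Trm had -8.27, -6.20, -7.10, -8.16 and -7.97, against -9.04, -8.40 and -8.60 in whole liver. In lung Trm the lowest level was -9.38, the median -8.44 and the highest -7.11, against -3.42, -3.16 and -3.57 in whole lung. Unlike most members it was well above background on 3 Tem arrays, where the 6 levels were -8.67, -3.70, -4.71, -6.27, -5.77 and -9.04. Whole PBMC had -7.64, -8.59 and -8.35.

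Myh11 encodes the heavy chain of smooth muscle myosin, the motor that pulls on these actins. Liver Trm had -6.30, -6.15, -5.46, -5.74 and -5.25, against -6.65, -3.69 and -6.21 in whole liver. Lung Trm had a lowest level of -7.17, a median of -6.73 and a highest of -6.36, against -6.28, -6.06 and -6.35 in whole lung. Intestine Trm had a lowest level of -6.62, a median of -6.12 and a highest of -4.85, against -5.35, -5.91 and -5.79 in whole intestine. Whole liver 2 was the highest array for Myh11 and Des alike. Tem had a Myh11 median of -6.45 and a range of -8.69 to -6.19, and whole PBMC had -5.75, -6.10 and -5.87. Des ranged from -9.66 to -5.95 over the sorted arrays, where none was well above background, and from -7.92 to -7.16 in whole intestine.

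**Figure D3:**
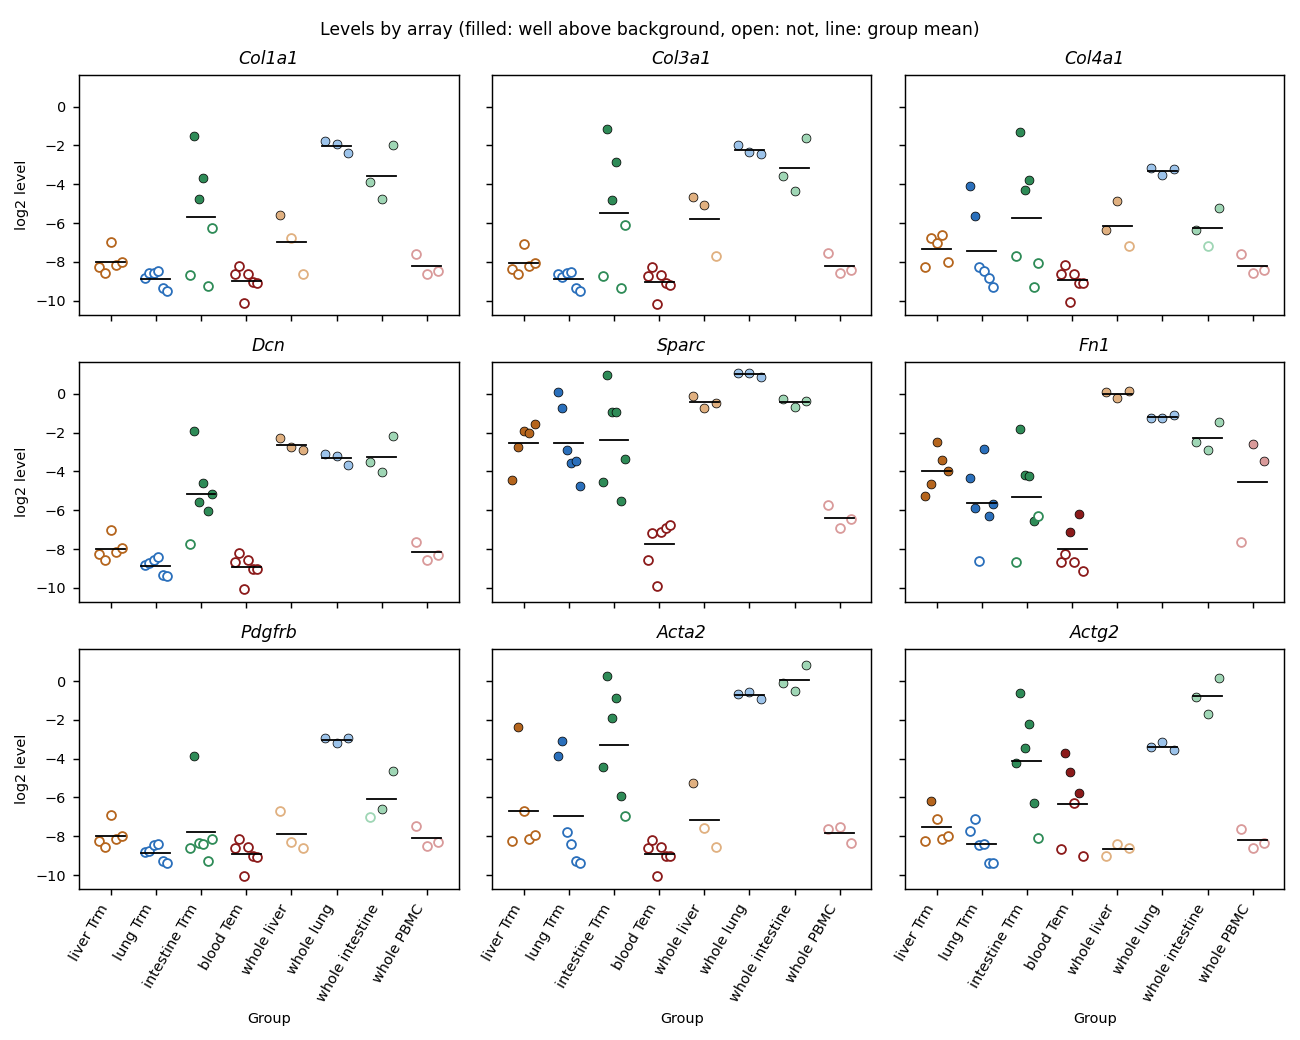
Log2 level of 9 members on every array (points, filled where well above background and open where not) and the mean of each group (line). Sparc is filled on all 17 Trm arrays and open in Tem and PBMC, while Col1a1, Col3a1 and Dcn are open in liver Trm, lung Trm and Tem.

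Each Trm population was set against its whole organ, which the study measured as a control for other cells. Fitted differences are log2, Trm minus organ, with their SE and adjusted p from limma with Benjamini-Hochberg adjustment over 10635 genes. Where a gene was not well above background on any array of one group, its fold is a lower bound. For each dim array the bound uses the gene's own signal or the lowest detectable signal, whichever is higher, and the mean of the bright group is set against the mean of these. A member at background in both groups still carries a difference, and the probes that were never above background shifted by 0.63 in liver, 0.39 in lung and 0.96 in intestine.

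In liver, decorin, a type I collagen chain and fibronectin were lower in Trm than in the whole organ, and no member was higher. Of 33 tested members 3 were lower, against 23.7% of all genes called lower, so the share was below that of all genes. The median difference over the 33 was -0.82, against -0.33 over all tested genes. Dcn averaged -7.99 ± 0.59 in liver Trm (SD, n = 5) and -2.65 ± 0.32 in whole liver (SD, n = 3), a difference of -5.34 ± 0.68 (SE, limma adjusted p = 1.72e-07) and at least 9.30-fold lower. Col1a2 averaged -7.33 ± 1.03 and -2.33 ± 0.36 in the same order (-5.00 ± 0.78, adjusted p = 5.59e-06, at least 11.6-fold lower). Fn1 averaged -3.95 ± 1.08 in liver Trm and 0.00 ± 0.17 in whole liver (-3.96 ± 1.1, adjusted p = 0.00502). In all 3 genes the groups did not overlap, and the calls held without any 1 array. Hepatocyte markers summed to 258, 235, 1833, 1433 and 701 on the liver Trm arrays, against 1850 to 2048 in whole liver, and Fn1 was highest on the 2 liver Trm arrays with the largest sums, 3 and 5. Their part in the Fn1 level was not tested.

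The other 30 tested members in liver did not pass the threshold, and many were near background on both sides. Col3a1 differed by -2.27 (limma adjusted p = 0.1), Sparc by -2.09 (adjusted p = 0.122), Col6a1, a beaded-filament collagen, by -2.61 (adjusted p = 0.107) and Nid1, the basement membrane linker nidogen, by -2.31 (adjusted p = 0.0824). None of the 7 contractile genes passed, with Acta2 at 0.46 (adjusted p = 0.849) and Actg2 at 1.14 (adjusted p = 0.479). Neither PDGF receptor passed. The number called lower became 6 without intestine Trm 2 and 5 without whole liver 3 or whole PBMC 1, and the fit takes 1 estimate of the spread from all arrays.

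In lung, nearly the whole set was lower in Trm. Of 33 tested members 30 were lower, against 25.8% of all genes called lower, and none was higher. Some of the 30, among them Pdgfrb, Eln and Col6a2, passed the filter only through whole lung, where they are high. Their calls against whole lung, here and below, are therefore no independent evidence of a difference, and the count of 30 is partly fixed by the filter. The median difference over the 33 was -4.57, against 0.09 over all tested genes, and all 30 calls held without any 1 array. By role, all 4 fibrillar collagens, 5 of 6 network and beaded collagens, all 3 basement membrane glycoproteins, all 4 genes of fibronectin, fibulins and elastic fibre, all 5 matricellular genes and regulators, both PDGF receptors, 1 of 2 proteoglycans and 6 of 7 contractile genes were lower. The largest difference was that of Col1a2, at -7.00 ± 1.26 in lung Trm (SD, n = 6) and 0.27 ± 0.19 in whole lung (SD, n = 3), or -7.27 ± 0.76 (SE, limma adjusted p = 3.42e-09).

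Sparcl1, a relative of Sparc found in vessel walls, had -3.82, -4.28, -8.38, -8.31, -6.81 and -9.14 on lung Trm 1 to 6, against 0.45, 0.32 and 0.12 in whole lung (-7.09 ± 1.28, limma adjusted p = 2.62e-05). Col1a1 differed by -6.87 ± 0.96 (adjusted p = 5.84e-07) and was at least 26.2-fold lower, and Col3a1 by -6.66 ± 1.02 (adjusted p = 2.3e-06), at least 22.4-fold lower. These 3 genes and Col1a2 had no lung Trm array in the range of whole lung. The laminin chain Lamb1 was at least 19.8-fold lower (adjusted p = 4.31e-06), and Mgp, an inhibitor of calcification in matrix, differed by -6.28 ± 0.82 (adjusted p = 2.23e-07). Pdgfrb was at least 13.0-fold lower (adjusted p = 5.25e-08) and Dcn differed by -5.55 ± 0.65 (adjusted p = 3.84e-08).

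Among the contractile genes in lung, Acta2 differed by -6.24 ± 1.32 (limma adjusted p = 0.0002) and Actg2 by -5.03 ± 1.03 (adjusted p = 0.000148). Cnn1, the actin-binding calponin, was at least 17.9-fold lower, and Myl9, a myosin light chain, differed by -5.23 ± 1.15 (adjusted p = 0.000312). Tagln and Tpm2, which encode transgelin and a tropomyosin, were lower by smaller amounts, at -3.87 and -2.69. Sparc, at -3.56 ± 0.99 (adjusted p = 0.00349), was among the smallest called differences. The 3 members not called were Lum, the proteoglycan lumican (-1.33, adjusted p = 0.0798), Myh11 (-0.50, adjusted p = 0.49) and Col14a1 (0.16, adjusted p = 0.818). Col14a1, a collagen on fibril surfaces, has 2 probes that disagree, and as the mean of both it differed by -2.10 (adjusted p = 0.000105), lower in lung Trm. Markers of some other cells were also lower in lung Trm than in whole lung: 9 of 10 endothelial markers (median difference -4.21), 6 of 10 lung epithelial markers (-2.53) and both mesothelial markers (-4.40). Macrophage and monocyte markers were not lower as a sum, at 49.7 to 124 in lung Trm against 44.5 to 61.8 in whole lung. The part of these other cells in the differences was not tested.

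In intestine, 14 of 33 members were lower in Trm, against 20.1% of all genes called lower, and none was higher. The median difference was -1.93, against -0.01 over all tested genes. Contractile genes made up 5 of the 14 (Acta2, Actg2, Cnn1, Tagln and Tpm2), of 7 tested, while none of the 4 fibrillar collagens was called. Fbln1, which encodes fibulin 1 of elastic fibres and basement membranes, had a lowest level of -6.64, a median of -6.49 and a highest of -4.82 in intestine Trm, against -1.84, -1.76 and -1.90 in whole intestine (-4.40 ± 0.45, limma adjusted p = 1.22e-09). Its other probe, which failed the filter, averaged -8.17 in intestine Trm and -7.36 in whole intestine. Cnn1 had -4.87, -2.35, -5.05, -2.97, -6.51 and -6.06 in intestine Trm, against -1.66, -2.01 and -1.82 in whole intestine (-2.81 ± 0.65, adjusted p = 0.000815). These were the only 2 called genes whose groups did not overlap. All 13 gut epithelial markers were lower in intestine Trm as well (median difference -6.55), while none of 10 endothelial markers was, and their part was not tested.

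Sparcl1, at -6.85, -0.02, -2.53, -2.05, -9.17 and -7.12 in intestine Trm against -1.01, -1.24 and -0.10 in whole intestine, differed by -3.85 ± 1.28 (limma adjusted p = 0.0194). Acta2 differed by -3.37 ± 1.32 (adjusted p = 0.0472, and 0.0529 with the slide as a block), Actg2 by -3.35 ± 1.03 (adjusted p = 0.012) and Fn1 by -3.02 ± 1.07 (adjusted p = 0.0286). Dcn, at -1.93 ± 0.65 (adjusted p = 0.0219), was lower by a smaller amount, and Lum, Lamb1, Nid1, Col6a3 and Pdgfra, the PDGF receptor of fibroblasts, completed the list. Lum passed the filter only through whole intestine, where it is high, so its call is no independent evidence of a difference. Not called were Col1a1 (-2.14, adjusted p = 0.0845), Col3a1 (-2.33, adjusted p = 0.0762), Col4a1 (0.53, adjusted p = 0.729) and Eln, which encodes elastin (1.12, adjusted p = 0.0883).

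The intestinal result turned on single arrays. Without intestine Trm 2, 23 members were called lower, the 14 among them, and the median difference was -2.58. Col1a1 then differed by -2.98 (limma adjusted p = 0.00458), Col3a1 by -3.20 (adjusted p = 0.00451) and Pdgfrb by -2.48 (adjusted p = 0.000138), while Col4a1 stayed uncalled at -0.36 (adjusted p = 0.799). Without intestine Trm 1, 5 or 6 the number was 8, 7 or 9, and without whole intestine 3 it was 3. Only Fbln1, Cnn1 and Tpm2 were called without any 1 array.

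**Figure D4:**
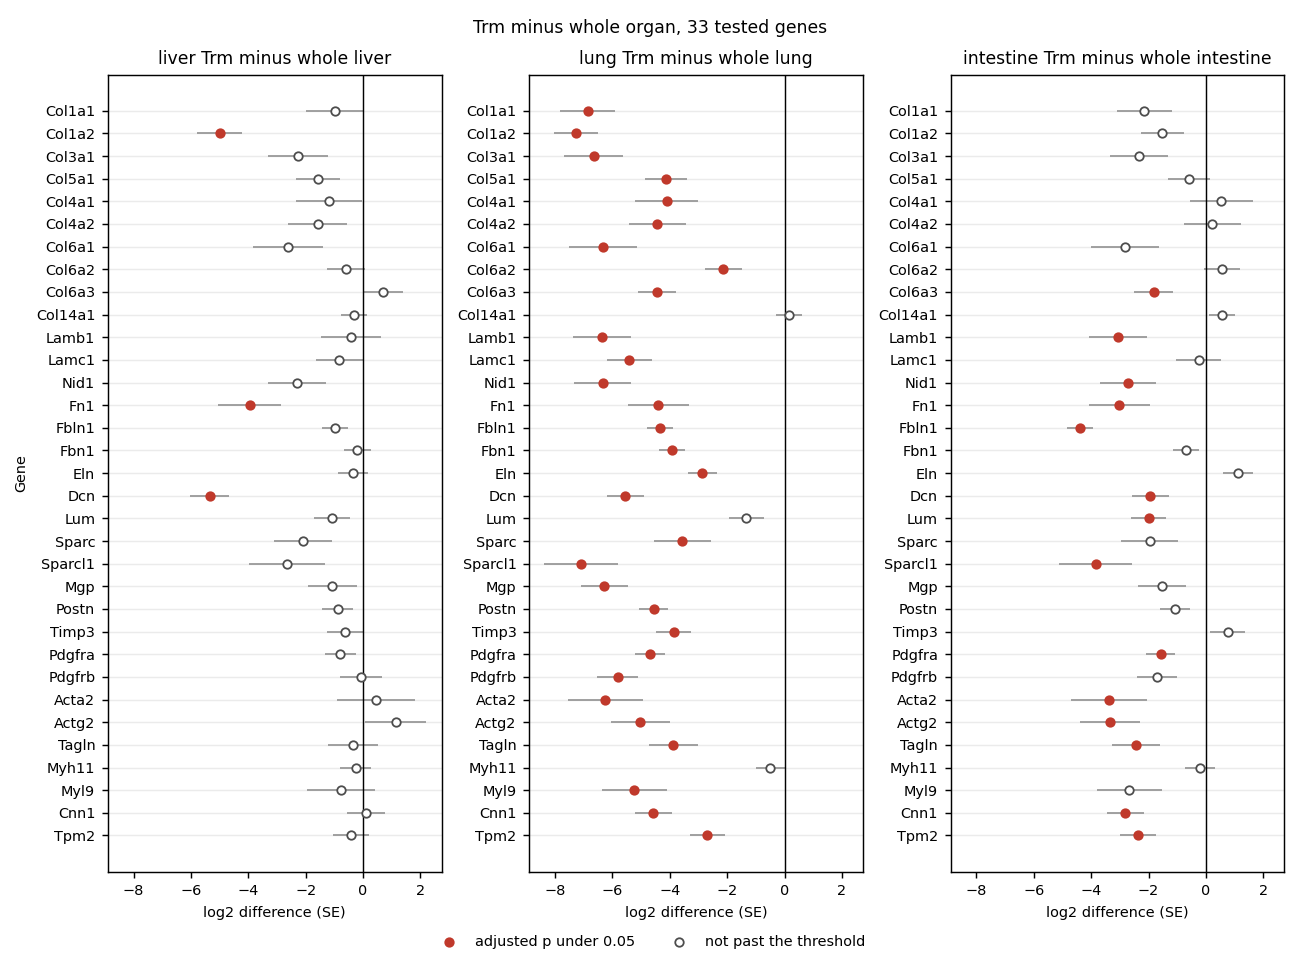
Log2 difference of Trm minus whole organ for the 33 tested genes (points, bars show the SE), in liver, lung and intestine. Filled red points passed an adjusted p of 0.05: 3 genes in liver, 30 in lung and 14 in intestine, all on the negative side.

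Dcn and Fn1 were lower than the organ in all 3 Trm populations, and Myh11 in none. Col14a1 was called in none by its chosen probe, but as the mean of its probes it was lower in lung Trm (-2.10, limma adjusted p = 0.000105) and in intestine Trm (-1.17, adjusted p = 0.0301). In liver the probes disagreed as well. The chosen probe of Col14a1 averaged -5.05 in liver Trm and -4.73 in whole liver, and its other probe -7.98 and -3.83. Whether the difference itself differed between organs was tested in the same fit, organ pair by organ pair. For lung against liver, 18 of 33 members passed, against 16.0% of all genes in either direction, and all 18 differences were more negative in lung. Among them were Acta2 (-6.70 ± 1.89, limma adjusted p = 0.012), Actg2 (-6.17 ± 1.49, adjusted p = 0.0032), Lamb1 (-5.94 ± 1.45, adjusted p = 0.00372) and Col1a1 (-5.87 ± 1.38, adjusted p = 0.0025). Pdgfrb had the smallest adjusted p among the 18 (-5.74 ± 1.01, adjusted p = 9.02e-05). However, Pdgfrb and Eln, also among the 18, passed the filter only through whole lung. Their differences are therefore no independent evidence. Many of the 18 were not well above background in the Trm or in whole liver, so these differences are not exact sizes. Nid1 and Tagln lost the call with the slide as a block (adjusted p = 0.0558 and 0.0535), and these 2, Col3a1 and Eln lost it without single arrays.

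For intestine against lung, 17 members passed, against 22.1% of all genes. All 17 differences were higher in intestine, where most were less negative and some, as of Eln (1.12) and Col4a1 (0.53), were above 0 and not called. Col1a2 (5.75 ± 1.07, limma adjusted p = 0.000122), Lamc1, a laminin chain (5.16 ± 1.11, adjusted p = 0.000695), and Mgp (4.74 ± 1.17, adjusted p = 0.00273) led the 17. The fibrillar genes Col1a1, Col3a1 and Col5a1 were among them. So were Pdgfrb, Eln and Col6a2, which passed the filter only through whole lung, so their differences are no independent evidence. Without single arrays the limma adjusted p reached 0.182 for Col6a3, 0.0842 for Col3a1, 0.0763 for Col4a1 and 0.0702 for Col6a2. Without whole intestine 2 it reached 0.0859 for Col5a1. For intestine against liver, 5 members passed, against 14.6% of all genes, a share close to that of all genes. Dcn (3.41 ± 0.94, adjusted p = 0.0104) and Col1a2 (3.48 ± 1.09, adjusted p = 0.0261) were less negative in intestine, and Actg2, Fbln1 and Cnn1 were more negative there. The number became 9 without intestine Trm 2 and 3 without intestine Trm 5 or 6, whole liver 1 or 3, or whole intestine 1 or 3.

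Setting the Trm populations against circulating Tem asked which members were above the level of circulating memory T cells. The 3 comparisons share the 6 Tem arrays, so their values are set side by side and no overlap between them is read as agreement. Probes never above background shifted by 0.93 in liver Trm, 0.06 in lung Trm and 0.51 in intestine Trm relative to Tem, and a member at background in both carried that shift. Dcn, for instance, differed by 0.94 in liver Trm and by 0.06 in lung Trm. No member was lower than in Tem in any of the 3.

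Sparc was higher than in Tem in each Trm population. Its mean was -2.53 ± 1.15 in liver Trm (SD, n = 5), -2.55 ± 1.85 in lung Trm and -2.39 ± 2.49 in intestine Trm (SD, n = 6 each), against -7.74 ± 1.24 in Tem (SD, n = 6). The differences were 5.21 ± 0.84 in liver (SE, limma adjusted p = 4.38e-05, at least 19.1-fold higher), 5.18 ± 0.80 in lung (adjusted p = 7.03e-05, at least 18.7-fold) and 5.34 ± 0.80 in intestine (adjusted p = 1.63e-05, at least 20.9-fold). No Trm array overlapped a Tem array, and the calls held without any 1 array. The dimmer Sparc probe averaged -5.99, -6.15 and -5.54 in liver, lung and intestine Trm, against -8.96 in Tem. Of the 10 tested endothelial markers, 6 were also higher than in Tem in liver Trm, 3 in lung Trm and 5 in intestine Trm. Their part in the Sparc level was not tested.

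In liver Trm 6 members were higher than in Tem, against 12.0% of all genes called higher. The median difference over the 33 was 0.97, against -0.31 over all genes and 0.93 over probes never above background. Beside Sparc they were Fn1 (4.05 ± 0.91, limma adjusted p = 0.00201), Nid1 (2.82 ± 0.84, adjusted p = 0.0135), Col4a2 (2.47 ± 0.85, adjusted p = 0.0283), Cnn1 (1.51 ± 0.55, adjusted p = 0.0361) and Timp3, an inhibitor of matrix proteases (1.42 ± 0.53, adjusted p = 0.0395, and 0.0589 with the slide as a block). Nid1 had -7.65, -5.88, -5.19, -5.07 and -6.29 in liver Trm, against a Tem range of -9.64 to -7.52 around a median of -8.95. Its other probes, which failed the filter, averaged -6.60 and -8.17 in liver Trm, against -7.47 and -9.12 in Tem. Nid1 and Col4a2 were well above background on 2 of 5 liver Trm arrays and Cnn1 on 1, so no fold is given for these 3. Of these 6 only Sparc, Fn1 and Nid1 were called without any 1 array. The number was 3 without liver Trm 3 or 5 or Tem 3, 10 without liver Trm 1 or whole liver 2, 12 without intestine Trm 2 and 15 without whole PBMC 1. Hepatocyte markers were higher than in Tem for 13 of 14 tested (median difference 5.62), endothelial markers for 6 of 10 (1.90) and macrophage and monocyte markers for 4 of 8 (1.35), and their part was not tested.

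In lung Trm, Sparc was the only member higher than in Tem, against 1.75% of all genes called higher, and the median difference was 0.24, against -0.16 over all genes. Fn1 (2.40, limma adjusted p = 0.158), Col4a2 (2.32, adjusted p = 0.135), Col1a2 (1.91, adjusted p = 0.0931) and Acta2 (1.93, adjusted p = 0.447) did not pass. The number was 2 without lung Trm 4 or intestine Trm 2.

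In intestine Trm 20 members were higher than in Tem, against 5.81% of all genes called higher, and the median difference was 2.65, against -0.04 over all genes. They comprised 3 of 4 fibrillar collagens, 3 of 6 network and beaded collagens, all 3 basement membrane glycoproteins, Fn1, Dcn, 4 of 5 matricellular genes and regulators, and 5 of 7 contractile genes. Neither PDGF receptor passed. Col1a2 led (-2.96 ± 2.00 in intestine Trm and -8.92 ± 0.64 in Tem, SD, n = 6 each; 5.96 ± 0.62, limma adjusted p = 1.13e-08, at least 14.5-fold higher). Acta2 (5.60 ± 1.07, adjusted p = 0.000487, at least 11.4-fold), Sparcl1 (4.18 ± 1.04, adjusted p = 0.0064), Col6a1 (4.14 ± 0.97, adjusted p = 0.00377) and Dcn (3.76 ± 0.53, adjusted p = 6.14e-06, at least 3.13-fold) were among the others. Gut epithelial markers were higher than in Tem for 7 of 13 tested (median difference 1.48) and endothelial markers for 5 of 10 (2.01), and their part was not tested.

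Without intestine Trm 2, 14 of the 20 were still called and the median difference was 1.81. The 6 that lost the call were Col4a1, Fn1, Lamb1, Mgp, Nid1 and Timp3. Col1a2 was then 5.32 higher (limma adjusted p = 1.33e-08), Acta2 4.88 higher (adjusted p = 0.00226) and Dcn 3.11 higher (adjusted p = 4.88e-06), and Sparc 4.67 higher (adjusted p = 6.91e-05). Leaving out any other single array gave 17 to 21.

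**Figure D5:**
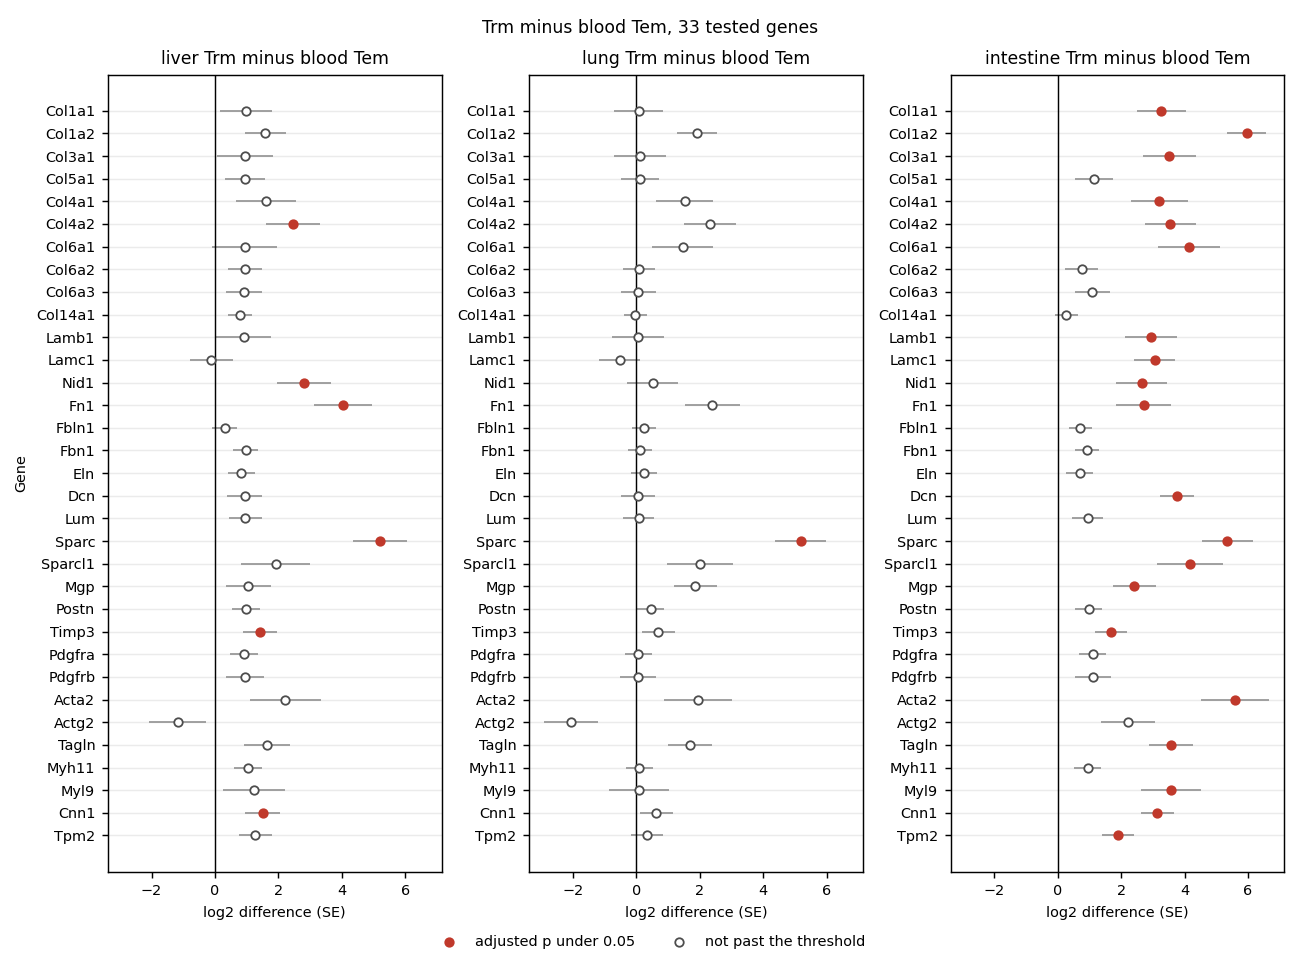
Log2 difference of Trm minus blood Tem for the 33 tested genes (points, bars show the SE), in liver, lung and intestine Trm. Filled red points passed an adjusted p of 0.05: 6 genes in liver, 1 in lung (Sparc) and 20 in intestine, all on the positive side.

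The Trm populations were also compared with each other. Intestine Trm stood above lung Trm for 11 members, against 5.48% of all genes called higher, with a median difference of 1.23. Actg2 (4.27 ± 0.84, limma adjusted p = 0.00104, at least 6.04-fold higher), Col1a2 (4.05 ± 0.62, adjusted p = 2.75e-05) and Dcn (3.70 ± 0.53, adjusted p = 1.03e-05, at least 2.96-fold) were the largest. Acta2, Cnn1, Myl9 and Tpm2 of the contractile genes, Col1a1, Col3a1, Lamb1 and Lamc1 were the others. The number was 7 without lung Trm 6 or without intestine Trm 2.

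Intestine Trm were above liver Trm for 5 members, against 5.16% of all genes called higher, with a median difference of 0.64. They were Col1a2 (4.37 ± 0.65, limma adjusted p = 1.14e-05, at least 7.50-fold higher), Actg2 (3.40 ± 0.89, adjusted p = 0.0122), Col6a1 (3.20 ± 1.02, adjusted p = 0.0482), Lamc1 (3.17 ± 0.67, adjusted p = 0.00176) and Dcn (2.82 ± 0.56, adjusted p = 0.000797). The number was 10 without intestine Trm 5 and 8 without intestine Trm 6, and Col6a1 lost the call with the slide as a block (adjusted p = 0.0555). Col6a1 had -7.36, 0.12, -3.67, -2.26, -9.14 and -5.55 in intestine Trm, against -8.12, -8.40, -6.87, -8.04 and -7.80 in liver Trm, so the groups overlapped. Between lung and liver Trm no member passed in limma, against 12.7% of all genes in either direction. The smallest adjusted p was 0.0644, and 4 members had an unadjusted p under 0.05. The number was 1 without liver Trm 1, lung Trm 1, intestine Trm 2 or 5, or whole PBMC 1.

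The whole organs differed among themselves in these genes. Whole lung was above whole liver for 20 members, against 12.1% of all genes called higher, with a median difference of 3.02. Acta2 (6.41 ± 1.52, limma adjusted p = 0.00161), Mgp (6.02 ± 0.95, adjusted p = 6.51e-06) and Actg2 (5.30 ± 1.19, adjusted p = 0.000935, at least 8.65-fold higher) were the largest. Mgp had 0.49, 0.36 and 0.19 in whole lung, against -5.87, -4.88 and -6.28 in whole liver. Dcn (-0.67, adjusted p = 0.583) and Fn1 (-1.21, adjusted p = 0.532) did not pass.

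Whole intestine was above whole liver for 11 members, against 14.0% of all genes called higher, and below it for 2, against 16.5% called lower. Of the 11, 6 were contractile genes: Actg2 (7.89 ± 1.19, limma adjusted p = 2.69e-06, at least 52.0-fold higher), Acta2 (7.21 ± 1.52, adjusted p = 0.000389), Cnn1 (4.53, adjusted p = 1.08e-05), Myl9, Tagln and Tpm2. Lamb1 had -3.35, -3.86 and -1.28 in whole intestine, against -5.66, -8.35 and -8.54 in whole liver (4.69 ± 1.17, adjusted p = 0.00247). Eln (-1.60, adjusted p = 0.0368) and Col14a1 (-1.41, adjusted p = 0.0378) were the 2 below, and neither was called without whole liver 2 (adjusted p = 0.44 and 0.482). The total of 13 became 7 without whole intestine 3.

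Whole intestine was below whole lung for 10 members, against 12.1% of all genes called lower, led by Mgp (-4.20 ± 0.95, limma adjusted p = 0.00087), Timp3 (-3.63 ± 0.72, adjusted p = 0.000174) and Eln (-3.54 ± 0.59, adjusted p = 1.27e-05, at least 3.31-fold lower). Timp3 had -6.02, -6.45 and -6.44 in whole intestine, against -2.55, -2.88 and -2.58 in whole lung, and Eln had -8.75, -9.04 and -9.46 in whole intestine, against -5.11, -6.03 and -5.48 in whole lung. Neither gene's groups overlapped. Fbn1, the microfibril protein fibrillin, and Postn, the matricellular protein periostin, were also below, and no contractile gene passed.

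In blood, 2 members were lower in Tem than in whole PBMC, against 11.3% of all genes called lower, with a median difference of -0.75, against 0.84 over all genes and -0.73 over probes never above background. Myl9 had -4.04, -3.53, -8.63, -6.48, -4.28 and -6.48 in Tem, against -4.37, 0.41 and 0.56 in whole PBMC (-4.44 ± 1.15, limma adjusted p = 0.00146). Fn1 differed by -3.44 ± 1.07 (adjusted p = 0.00667), and by an amount that did not pass without whole PBMC 2 (adjusted p = 0.0833). Both were high on whole PBMC 2 and 3 and not on whole PBMC 1. Platelet markers summed to 233 and 214 on PBMC 2 and 3, against 47.2 on PBMC 1, and their part was not tested.

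Another 85 genes of matrix assembly, processing, receptors, contraction and TGF-beta or PDGF signals gave the wider setting, of which 60 were tested. In lung Trm 40 of the 60 were lower than in whole lung, against 25.8% of all genes called lower, with a median difference of -2.99. In liver Trm 17 were lower than in whole liver, against 23.7% of all genes, and in intestine Trm 13 were lower than in whole intestine, against 20.1%. Pdgfb, the growth factor that recruits pericytes, was lower in liver Trm (-6.14) and lung Trm (-6.51), and Col16a1, a minor collagen, likewise (-4.82 and -6.44). In intestine Trm the collagen receptor Ddr1 (-5.03) and Synpo2, an actin-bundling protein of muscle (-4.83), were lower.

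T cells are also known to express several of these genes. Cd44, the hyaluronan receptor (3.24), the cytokine gene Tgfb1 (2.61) and its receptor gene Tgfbr2 (2.30) were higher in intestine Trm, and Flna, an actin crosslinker (3.06), and Tgfbr2 in liver Trm. Relative to Tem, 14 of the 60 were higher in intestine Trm, against 5.81% of all genes called higher. In lung Trm 1 was higher, against 1.75% of all genes, and in liver Trm 13, against 12.0%. Tgfbi, an adhesive matrix protein induced by TGF-beta, was higher in intestine (3.40), lung (3.43) and liver Trm (2.25), and Itgb1, the integrin beta 1 chain, was lower in each (-1.49, -1.60 and -1.89).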

How the data were processed

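RNA of 35 samples in 8 groups was amplified in 2 rounds and hybridised to 1-colour Agilent arrays. The deposited intensity of each spot is background-subtracted by Feature Extraction 11.0.1.1 per the file headers, while version 10.7 and Partek stand in the labels. The deposited log2 values differ from quantile-normalised intensities by a median of at most 0.000465 on any array and served as an alternative. Here log2 intensities were scaled to each array's 75th percentile. A gene was represented by its brightest kept probe. Differences were fitted with limma 3.58.1 (R 4.3.3) over 10635 genes and all 35 arrays, with 8 group means and Benjamini-Hochberg adjustment, and the threshold for a call was an adjusted p of 0.05. Tables were made with pandas 2.3.3 and plots with matplotlib 3.10.9 (Python 3.11.15). The fit was tested on simulated data: between liver Trm and whole liver it recovered 40% of genes changed by a log2 of 2 and 96% of those changed by 4. The number of arrays limits the precision. Alternatives were other normalizations, filters, probe summaries, subsets of arrays, the slide as a block, and each array left out in turn. The members and gene lists were chosen with earlier results of these data known. Levels on every array are given for 1 or 2 genes of each role and for the 3 largest called differences of a comparison.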

Additional observations from a re-analysis of the deposited data

Results flagged for a closer look

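Between organs, the difference of Trm minus whole organ itself differed for many members, by a test of that difference in limma. For lung against liver 18 members passed, among them Acta2 (-6.70), Actg2 (-6.17), Col1a1 (-5.87), Pdgfrb (-5.74) and Col3a1 (-4.39), all more negative in lung. Of these Col3a1 did not pass without liver Trm 3, lung Trm 6, whole liver 3 or any 1 whole lung array (adjusted p up to 0.137). For intestine against lung 17 passed, among them Col1a1 (4.72), Col4a1 (4.64), Col3a1 (4.33), Pdgfrb (4.12) and Dcn (3.61), all higher in intestine (less negative, or above 0 for Col4a1). Of these Col3a1 did not pass without whole lung 1 or 2 or whole intestine 1 or 2 (adjusted p up to 0.0842), nor Col4a1 without lung Trm 6, any 1 whole lung array or whole intestine 1 or 2 (up to 0.0763). Pdgfrb passed the filter only through whole lung, so its differences between lung and the other organs are no independent evidence. For intestine against liver 5 passed, among them Actg2 (-4.49) and Dcn (3.41), and Actg2 did not pass without liver Trm 2 or 3, intestine Trm 5 or 6, any 1 whole liver array or whole intestine 1 or 3 (adjusted p up to 0.109).

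Single arrays stood far from the rest of their group in 4 of 44 sets of levels examined, where chance flags about 1 in 20. Intestine Trm 2 was high for Pdgfrb (-3.88) and Des (-5.95), with Des not well above background there. Liver Trm 2 was high for Acta2 (-2.37), and Tem 3 was low for Myh11 (-8.69). That Myh11 level lay below the lowest detected level on Tem 3 (-7.99). Probes never above background had a median of -10.03 on Tem 3, the lowest of the Tem arrays.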

How the results depend on the processing

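Over 13 alternatives, 4997 of 5286 results for single members kept their direction and their side of the threshold, 183 passed where they had not before, 104 no longer passed and 2 reversed. The alternatives are not independent. The deposited values repeat quantile normalization, and requiring at least 2-fold changed none of its 429 results, so the pooled count overstates the agreement. The 2 are Col14a1, whose probes disagree: as the mean of its probes it was -2.10 in lung Trm and -1.17 in intestine Trm relative to the organ. Fbln1 and Nid1 also have dimmer probes, which failed the filter and did not follow the chosen probe. In lung Trm and whole lung these averaged -8.53 and -8.55 for Fbln1. For Nid1 they averaged -7.25 and -7.55 on 1 probe, and -9.03 and -9.45 on the other. The count of called members moved by over 1.5 times as follows, and the causes were not tested. The share of all genes called under each alternative is not given. These moves, and those with 1 array left out, therefore cannot be read as particular to the members. For liver Trm minus whole liver (3) it was 8 with normexp, 7 with only the groups compared and 9 without 3 doubted arrays (liver Trm 3, Tem 3 and whole PBMC 1), but 4 when whole liver 2 was left out as well, a choice made after seeing the data. For intestine Trm minus whole intestine (14) it was 3 with only the groups compared. For Tem minus PBMC (2) it was 5 with quantile normalization or the deposited values, 7 with normexp and 10 with scaling over all probes. For liver Trm minus Tem (6) it was 15 with normexp, 10 with no filter, with only the groups compared or with sorted arrays only, and 2 without the doubted arrays, with or without whole liver 2. For intestine Trm minus Tem (20) it was 12 with only the groups compared. Among Trm, lung minus liver (0) gave 11 with normexp, 2 with only the groups compared and 1 without the doubted arrays and whole liver 2. Intestine minus liver (5) gave 10 with quantile normalization or the deposited values, 8 with normexp and 2 with only the groups compared, and intestine minus lung (11) gave 5 with only the groups compared.

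Leaving out each array gave 3 to 6 for liver Trm minus organ, 30 to 31 for lung, 3 to 23 for intestine and 1 to 3 for Tem minus PBMC. Against Tem it gave 3 to 15 for liver, 1 to 2 for lung and 14 to 21 for intestine Trm. Among Trm it gave 0 to 1 for lung minus liver, 4 to 10 for intestine minus liver and 7 to 15 for intestine minus lung. Among whole organs it gave 15 to 22, 7 to 17 and 7 to 13 for lung minus liver, intestine minus liver and intestine minus lung. The differences between organs gave 14 to 21, 3 to 9 and 12 to 20 members for lung against liver, intestine against liver and intestine against lung.

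Samples with the same number showed no common deviation (median r = -0.004, range -0.32 to 0.42, over 33 pairs of sorted samples). A median near 0 cannot exclude that the numbers pair them. Sorted arrays with the same number also lay on the same slide. With the slide as a replicate block, lung minus liver Trm had 1 called member (Nid1), and the other counts stayed within 1.5 times. Normexp used the median spot and background signals. Signal over background limits what can be said: 26 of 40 members were on no liver Trm array well above background, and folds against such groups are bounds.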
